A study of Homo sapiens with 4 samples.

Results

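Single-nucleus chromatin accessibility was measured in Panc1, a cell line derived from a human pancreatic ductal adenocarcinoma, after growth in transplanted mice given Inflachromene or Carrier. The regions described here had a peak in both Inflachromene libraries (mice 11 and 35) and in neither Carrier library (mice 12 and 31). Peaks of the 4 libraries on chromosomes 1 to 22 and X were merged wherever they overlapped by at least 1 bp, and 4666 of the 128195 merged regions (3.64%) met this rule. They are called Inflachromene-only regions below, a name that covers the presence of called peaks and no more. They were chosen by the presence and absence of called peaks, so that presence is a description and no difference between the groups was tested on them. The matrices count only a library's own peaks, so the Carrier libraries give no value for these regions, not a value of 0.

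Each library came from 1 mouse, so each group has 2 replicates. The Inflachromene group is Panc1 from a mouse treated with inflachromene, a compound described as binding HMGB1 and HMGB2, DNA-bending proteins of chromatin. The Carrier group is Panc1 from a mouse given the carrier alone. All 4 libraries carry the tissue label pancreas. For the mice, strain, sex and age are not given, nor are dose and duration of treatment, and Panc1 is 1 cell line from 1 tumour. Regions with a peak in all 4 libraries are called consensus regions (50771), and those with a peak in both Inflachromene libraries and in 1 Carrier library (7632) serve as the nearest comparison set.

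Open chromatin lies mostly at promoters, which many cell types share, and at enhancers, distal elements that bind factors such as AP-1, TEAD or ETS proteins and differ more between cell states. A transposase inserts into such sites, and a peak is called where insertions pile up above the background of that library. Whether a weak site is called therefore varies with depth and with the share of nuclei in which it is open. In sums over a library, fewer nuclei with an open site and a less open site in each nucleus cannot be told apart.

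The Inflachromene libraries held 27088391 counts in 4067 barcodes (Inflachromene 11) and 39947056 in 3276 (Inflachromene 35), against 33336531 in 5186 (Carrier 12) and 29295799 in 2039 (Carrier 31). Peaks covered 66.9 and 82.3 Mb in Inflachromene 11 and 35, against 67.2 and 64.8 Mb in Carrier 12 and 31, so Inflachromene 35 stood apart in depth and in covered length. Libraries also shared barcode names. Inflachromene 11 and Carrier 12 had 1209 names in common, which carried 1.96% of the counts of Inflachromene 11 and 57.9% of those of Carrier 12. For such a name the smaller of its 2 counts was, at the median, 0.959% of the larger. Inflachromene 11 and Carrier 31 shared 155 names, Carrier 12 and 31 shared 357, and pairs with Inflachromene 35 shared 25 to 29. The part of these names in the results was not tested beyond the values without them, which stand beside the results on barcodes. Of 10 preset markers of carcinoma cells, KRT8, VIM and MET had a consensus region over a start site. So did 3 of 7 markers of fibroblasts (PDGFRA, PDGFRB and ACTA2), 3 of 6 of myeloid cells (CSF1R, CD68 and CD14) and 1 of 4 of B cells (PAX5). None of the markers of endothelial, T and NK, acinar, endocrine or Schwann cells did. Inflachromene-only regions lay within 10 kb of KRT8, KRT18 and KRT19 among the carcinoma markers, COL1A1 among the fibroblast markers, CSF1R and SPI1 among the myeloid markers, CD79A among the B-cell markers and CHGA among the endocrine markers.

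A minority of Inflachromene-only regions covered a start site, 131 of 4666 (2.81%), against 18.7% of consensus regions. The share was 4.17% in regions with 1 Carrier peak. It was 1.86% in regions called in both Carrier libraries and in neither Inflachromene library. The 4 promoters with the highest levels are shown first, because they are the sites where a region can be tied to a gene by position. They are followed by 2 that hold the AP-1 letters, chosen after their values were seen, because that motif was the one most over the share in all promoters. Each runs from 250 bases before to 50 bases after the start, 5′ to 3′ in the direction of the gene, from RefSeq on GRCh38.p14. Capitals mark any match, on either strand, to 8 sets of letters: TGANTCA of AP-1, TGACGTCA of cyclic AMP response factors, GGGCGG of SP and KLF factors, CACGTG of E-box factors, GGAATG of TEAD factors, CCAAT of NF-Y, TATAAA of the TATA box and CCGGAAG of ETS factors. The CASP9 promoter is chr1:15524166-15524465 on the minus strand, PIGW is chr17:36534737-36535036 on the plus strand, COL13A1 is chr10:69801656-69801955 on the plus strand and SAMD13 is chr1:84298288-84298587 on the plus strand. The FAM107B promoter is chr10:14572326-14572625 on the minus strand and CXCL14 is chr5:135578942-135579241 on the minus strand.
CASP9: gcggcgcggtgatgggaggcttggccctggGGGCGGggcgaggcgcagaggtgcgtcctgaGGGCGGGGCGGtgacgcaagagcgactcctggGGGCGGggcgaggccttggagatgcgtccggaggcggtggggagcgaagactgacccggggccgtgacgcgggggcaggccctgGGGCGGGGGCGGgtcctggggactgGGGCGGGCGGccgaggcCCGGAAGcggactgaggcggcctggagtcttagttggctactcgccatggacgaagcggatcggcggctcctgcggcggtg
PIGW: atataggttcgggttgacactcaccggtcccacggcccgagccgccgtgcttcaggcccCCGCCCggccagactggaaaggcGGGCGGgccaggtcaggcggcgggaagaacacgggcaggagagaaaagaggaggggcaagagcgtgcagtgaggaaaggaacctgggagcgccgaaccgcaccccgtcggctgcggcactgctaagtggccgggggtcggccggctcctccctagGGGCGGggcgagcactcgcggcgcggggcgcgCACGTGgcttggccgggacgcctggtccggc
COL13A1: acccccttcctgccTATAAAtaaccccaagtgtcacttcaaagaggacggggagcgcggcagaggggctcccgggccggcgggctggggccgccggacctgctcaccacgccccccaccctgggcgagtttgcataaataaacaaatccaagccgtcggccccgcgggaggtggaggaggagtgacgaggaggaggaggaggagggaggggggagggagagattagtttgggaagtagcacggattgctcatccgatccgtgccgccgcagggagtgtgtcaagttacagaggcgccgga
SAMD13: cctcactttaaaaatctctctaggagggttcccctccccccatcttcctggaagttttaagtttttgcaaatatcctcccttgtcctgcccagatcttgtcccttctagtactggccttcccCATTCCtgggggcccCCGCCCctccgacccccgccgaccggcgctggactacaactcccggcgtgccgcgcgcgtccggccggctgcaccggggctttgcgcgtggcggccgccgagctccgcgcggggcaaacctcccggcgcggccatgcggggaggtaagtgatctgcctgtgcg
FAM107B: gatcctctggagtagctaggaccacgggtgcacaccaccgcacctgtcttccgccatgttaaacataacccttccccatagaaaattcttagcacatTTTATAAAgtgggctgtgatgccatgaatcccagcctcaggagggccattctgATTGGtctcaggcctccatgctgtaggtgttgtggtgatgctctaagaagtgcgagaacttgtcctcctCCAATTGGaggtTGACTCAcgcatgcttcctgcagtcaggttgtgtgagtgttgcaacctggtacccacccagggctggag
CXCL14: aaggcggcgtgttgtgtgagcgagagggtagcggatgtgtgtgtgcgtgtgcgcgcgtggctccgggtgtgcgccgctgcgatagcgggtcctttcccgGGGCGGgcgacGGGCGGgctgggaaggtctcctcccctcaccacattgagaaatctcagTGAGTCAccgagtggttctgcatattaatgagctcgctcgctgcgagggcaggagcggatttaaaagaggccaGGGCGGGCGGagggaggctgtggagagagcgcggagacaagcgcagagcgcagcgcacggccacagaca

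The CASP9 promoter held runs of GGGCGG, the letters bound by SP and KLF factors, and 1 match to the ETS letters CCGGAAG. COL13A1 had TATAAA near the far end of its window and none of the other 7. FAM107B held the AP-1, NF-Y and TATA letters, and CXCL14 those of AP-1 and of SP and KLF factors. Starts of 133 genes with a promoter in the table, 149 promoters in all, lay in Inflachromene-only regions. Of these 149, 17 (11.4%) held TGANTCA, the letters bound by AP-1 (dimers of FOS and JUN proteins), against 4.36% of the 12140 promoters in consensus regions and 6.15% of all 22132 promoters of the table. The TEAD letters GGAATG were in 15.4%, against 10.2% in consensus regions and 12.2% of all, and TATAAA was in 10.7%, against 4.68% and 9.46%. The ETS letters CCGGAAG were in 4.03%, against 20.1% and 12.8%, and GGGCGG was in 55.0%, against 74.4% and 56.3%. CCAAT, the NF-Y letters, were in 29.5%, against 36.5% and 34.6%. CACGTG was in 10.1%, against 10.2% and 8.34%, and TGACGTCA was in 2 of the 149 promoters (1.34%), against 3.34% and 2.26%. TGANTCA and TGACGTCA cannot match at the same place, while GGGCGG can overlap itself. The median promoter in an Inflachromene-only region had 16 CG dinucleotides and 63.3% G and C, against 27 and 66.3% in consensus regions and 21 and 62.3% over all. In regions with 1 Carrier peak the medians were 24 and 67%. In regions called only in both Carrier libraries they were lower still, 8 and 59% (39 promoters). Shares of the letters were not computed for either of those sets. A match describes letters in a window and not a bound site.

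The 17 promoters with TGANTCA were below the highest promoters in level. Those named here lay over 1 kb from any Carrier peak. The highest was that of CDHR4, a cadherin-related gene, with 6.39 CPM in Inflachromene 11 and 7.96 in Inflachromene 35 (CPM, counts per 1000000 counts of the library). FLRT1, which encodes a cell adhesion protein of the nervous system, had 7.02 and 5.68 CPM. Both CDHR4 and FLRT1 were above the median Inflachromene-only region (3.06 CPM in Inflachromene 11 and 3.15 in Inflachromene 35). CXCL14, which encodes a secreted chemokine, shared its region with the start of SLC25A48 and had 5.28 and 3.33 CPM, with the nearest Carrier peak 11842 bp away. FAM107B had 3.84 and 3.08 CPM at 14791 bp, GPNMB, which encodes a membrane glycoprotein of melanocytes and macrophages, had 3.43 and 3.38 CPM at 3554 bp, and BCHE, which encodes butyrylcholinesterase, had 2.07 and 2.18 CPM at 193019 bp.

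The number of Inflachromene-only regions is read against the other ways of pairing the libraries. The mirror set, with a peak in both Carrier libraries and in neither Inflachromene library, numbered 2046 (1.6%). Pairs with 1 library of each group had 4414 regions (Inflachromene 35 and Carrier 12), 3873 (Inflachromene 35 and Carrier 31), 1860 (Inflachromene 11 and Carrier 12) and 1670 (Inflachromene 11 and Carrier 31). Thus the 4666 lay just above the highest mixed pair, and each of the 3 highest counts included Inflachromene 35, the deepest library. Regions found in 1 library alone were more frequent still, with 19652 in Inflachromene 35, 9603 in Inflachromene 11, 8808 in Carrier 12 and 7009 in Carrier 31. With the rule applied to 3 libraries the count was 24318 without Inflachromene 11, 14269 without Inflachromene 35, 8667 without Carrier 12 and 8297 without Carrier 31.

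Inflachromene-only regions were weak peaks. Their median level was 3.06 CPM in Inflachromene 11 (median 83 counts, range 16 to 1715) and 3.15 CPM in Inflachromene 35 (median 126 counts, range 15 to 4675). Consensus regions had medians of 9.23 and 9.69 CPM in the same 2 libraries. The median Inflachromene-only region lay above 7.05% of consensus regions in Inflachromene 11 and above 8.14% in Inflachromene 35. All of them together took 1.80% of the counts of Inflachromene 11 (95% exact binomial interval 1.79 to 1.80) and 1.84% of those of Inflachromene 35 (1.84 to 1.85). These intervals cover counting error only, and 2 counts are often the 2 ends of 1 fragment. The mirror set took 0.905% of the counts of Carrier 12 and 0.834% of those of Carrier 31. Between the 2 Inflachromene libraries 95.2% of the 4666 regions agreed within a factor of 2, and across regions log2 CPM had a Pearson r of 0.79 and a Spearman rho of 0.74, given as a description of regions that share libraries.

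The share of regions that lacked a Carrier peak fell steadily with their level. Of regions with a peak in both Inflachromene libraries and a lower CPM under 2, 33.6% had no Carrier peak. The share was 21.2% at 2 to 3 CPM, 11.5% at 3 to 4, 6.23% at 4 to 6, 2.71% at 6 to 10, 0.830% at 10 to 20 and 0.119% (14 of 11808) at 20 CPM or more. The mirror set had the same order at a lower level, with 20.2% under 2 CPM, 13.5% at 2 to 3, 6.69% at 3 to 4, 3.83% at 4 to 6, 1.60% at 6 to 10, 0.451% at 10 to 20 and 0.0789% at 20 or more. Over all levels 7.398% of regions called in both Inflachromene libraries had no Carrier peak, against 3.47% of regions called in both Carrier libraries with no Inflachromene peak.

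**Figure D1:**
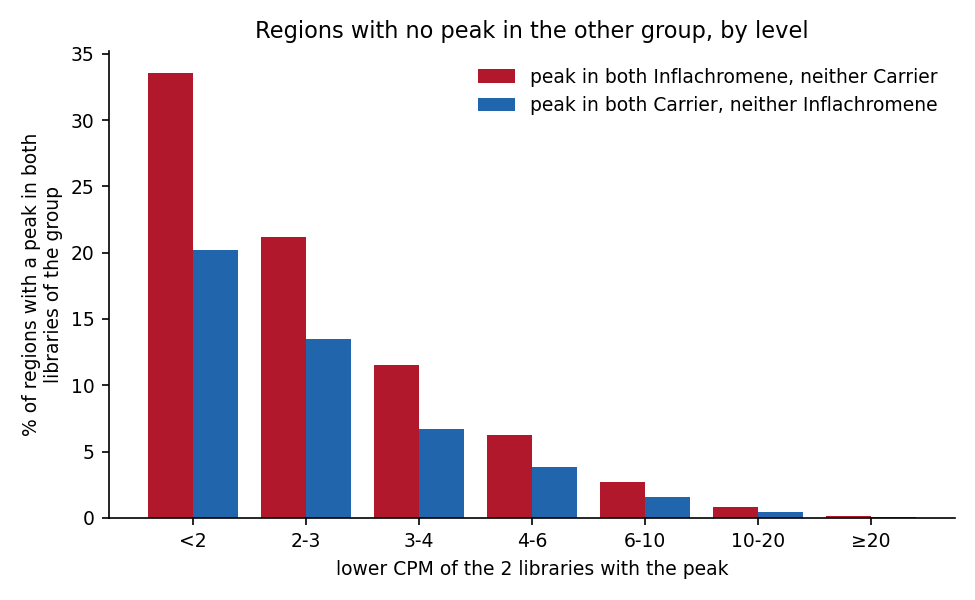
Percent of regions with no peak in the other group (y axis) by the lower CPM of the 2 libraries that have the peak (x axis), for regions called in both Inflachromene libraries (red) and in both Carrier libraries (blue). Bars fall from 33.6% and 20.2% under 2 CPM to 0.119% and 0.0789% at 20 CPM or more.

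Many Inflachromene-only regions lay close to a Carrier peak that they did not touch. The median distance to the nearest Carrier peak was 4624 bp, 832 regions (17.8%) were under 1000 bp away and 3232 (69.3%) under 10 kb. In the mirror set 25.1% were under 1000 bp from an Inflachromene peak. Proximity was most frequent among strong regions, with 48.4% of the 467 of highest level under 1000 bp, against 14.4% of the other 4199. How the boundaries of the peaks fell at these 832 was not tested. The rule has a sharp edge, and 3 regions sit on its inner side. A region in UCK2, which encodes a uridine kinase, adjoins a Carrier peak with no base between them (chr1:165841362-165842205, 57 counts or 2.105 CPM in Inflachromene 11 and 180 counts or 4.51 CPM in Inflachromene 35). A region 8536 bp from a BMP4 start lies 2 bp away (chr14:53963586-53964099, 3.40 and 3.71 CPM), and one at the start of TMEM132E 3 bp away (chr17:34578988-34579839, 6.09 and 5.46 CPM). Just outside, 3 regions failed by a short overlap. One in the axon guidance receptor gene PLXNA4 shared 2 bp with a Carrier 12 peak (chr7:132251151-132252829, 6.06 and 3.96 CPM in Inflachromene 11 and 35 and 3.78 CPM in Carrier 12). One on the X chromosome, 63135 bp from CCDC160, shared 25 bp with a Carrier 31 peak (3.66 and 3.41 CPM in Inflachromene 11 and 35, 2.08 in Carrier 31). One at RAPGEF5 shared 31 bp with a Carrier 12 peak (5.72 and 4.08 CPM in Inflachromene 11 and 35, 3.75 in Carrier 12).

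Inflachromene-only regions lay away from gene ends. Within 1 kb of an outer end of a protein-coding gene lay 332 of them (7.12%), against 9.72% of regions with 1 Carrier peak, 25.8% of consensus regions and 14.5% of all merged regions. Inside genes, over 1 kb from their ends, lay 48.4%, and 44.4% lay outside genes. Over 50 kb outside any gene lay 936 regions (20.1%), against 6090 of the 50771 consensus regions and 15.5% of all merged regions. The median distance to a gene end was 30063 bp, against 24000.5 bp for regions with 1 Carrier peak and 11381 bp for consensus regions. The mirror set, the regions only in Carrier libraries, had 8.94% within 1 kb of a gene end and a median distance of 17778.5 bp. Widths were alike, with a median of 924 bp against 936 bp in consensus regions.

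**Figure D2:**
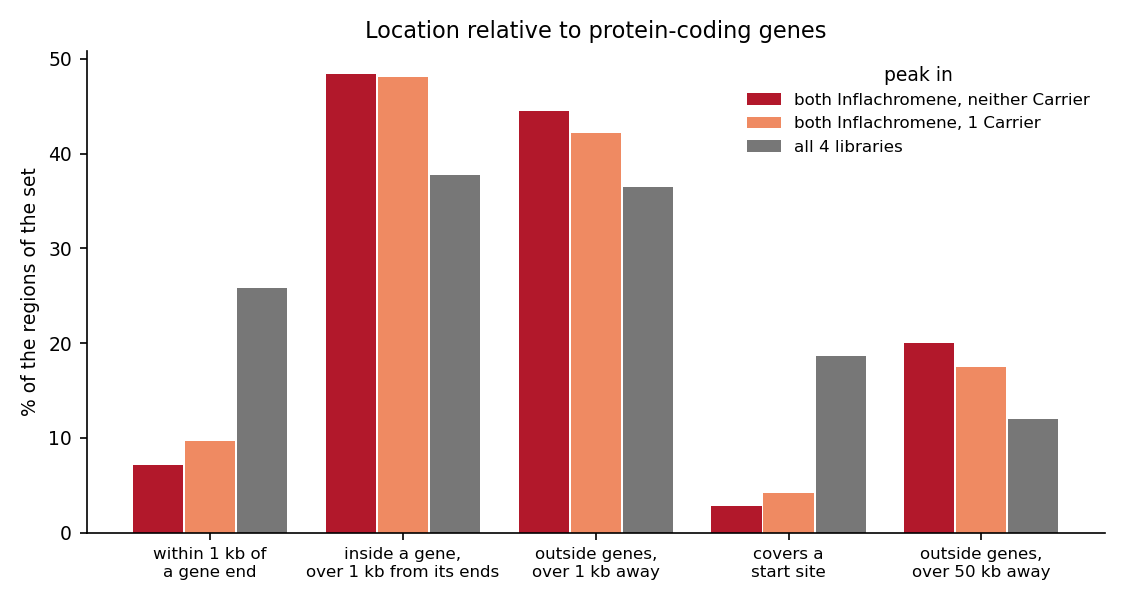
Percent of the regions of each set (y axis) in 5 places relative to protein-coding genes (x axis) for regions called in both Inflachromene libraries and neither Carrier library (red), in both and 1 Carrier library (orange) and in all 4 libraries (grey). The first 3 places add up to all regions; the last 2 are parts of the others. Red bars are lowest at gene ends (7.12% against 25.8% in grey) and highest beyond 50 kb (20.1%).

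The strongest Inflachromene-only regions lay near gene starts, and 7 of the 8 highest (by the lower of the 2 libraries, per kb of peak) were under 1 kb from a Carrier peak. The highest covered starts of CASP9, which encodes the initiator caspase of the mitochondrial apoptosis pathway (chr1:15524125-15525294). It had 63.3 CPM (1715 counts) in Inflachromene 11 and 117 CPM (4675 counts) in Inflachromene 35, with the nearest Carrier peak 979 bp away. The next were 595 bp from AHI1, a gene of primary cilia (15.1 and 17.2 CPM, Carrier peak at 103 bp), and 285 bp from TMEM102 (42.6 and 37.2 CPM, at 698 bp). One 771 bp from DHRS3, which encodes a retinal reductase, had 19.0 and 20.7 CPM with a Carrier peak at 75 bp. One at CCDC18 had 16.4 and 16.3 CPM at 94 bp. One over the starts of PIGW, an enzyme of glycosylphosphatidylinositol synthesis, and MYO19, a mitochondrial myosin, had 19.4 and 19.7 CPM at 3 bp. One 424 bp from EEF1A1, a translation elongation factor gene, had 33.5 and 25.7 CPM at 264 bp. The remaining one covered an outer end of HOXB7, a homeobox gene (chr17:48610289-48611251). It had 37.3 and 28.9 CPM, and its nearest Carrier peak was 3672 bp away. In 5 of these 8 the Inflachromene libraries differed by less than 15% of the higher value.

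Start sites were also covered at COL13A1, which encodes a transmembrane collagen (28.9 CPM in Inflachromene 11 and 26.2 in Inflachromene 35), SAMD13 (17.7 and 14.6), SEPTIN9, a cytoskeletal GTPase gene (32.0 and 25.2), and TSPAN4, a tetraspanin gene (26.2 and 36.2). Carrier peaks lay 16 to 659 bp from these. Regions over a start with no Carrier peak within 1 kb were taken after their values were seen. The highest was at ITPR3, which encodes an inositol trisphosphate receptor that releases calcium from the endoplasmic reticulum (19.2 and 17.7 CPM, Carrier peak at 1466 bp). GABBR1, a subunit of the GABA-B receptor, had 16.7 and 13.4 CPM at 4213 bp. JADE2 had 18.1 and 14.0 CPM at 2271 bp, NAV1, a neuron navigator gene, had 18.4 and 13.7 CPM at 2083 bp, RGS14 had 11.8 and 10.0 CPM at 4478 bp and NUP210, a nuclear pore gene, had 13.8 and 8.86 CPM at 9313 bp. These are alternative or internal starts in part: the NAV1 one lies 86819 bp inside the gene.

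Strong regions far from every Carrier peak were few. With at least 10 kb to the nearest Carrier peak, and again chosen after their values were seen, the highest was on chromosome 19 (39372348 to 39373260), 12369 bp from PAF1, with 30.4 CPM in Inflachromene 11 and 27.3 in Inflachromene 35 and the nearest Carrier peak at 17509 bp. The others were far lower. Among them, a region 3390 bp from an end of ADAMTSL1 had 9.82 and 9.79 CPM, one in CCDC85C 8.90 and 10.0, one in NOS1AP 9.01 and 10.2 with the nearest Carrier peak 66988 bp away, and one 31710 bp from CEBPB, which encodes a bZIP transcription factor, 7.79 and 7.64 CPM.

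Chromosomes differed in their share of Inflachromene-only regions. The share was highest on chromosome 2 (481 of 9918 merged regions, 4.85%), followed by chromosome 11 (4.38%), 18 (4.21%), 8 (4.15%), 21 (4.09%) and 3 (4.01%). It was lowest on chromosome 19 (2.47%), followed by X (2.99%), 20 (3.05%) and 7 (3.10%). The mirror set ran the other way at several of these, with its highest shares on chromosomes 19 (2.25%) and 17 (2.23%) and its lowest on 13 (1.03%), 11 (1.15%) and 2 (1.19%). The number of DNA copies of each chromosome was not measured.

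**Figure D3:**
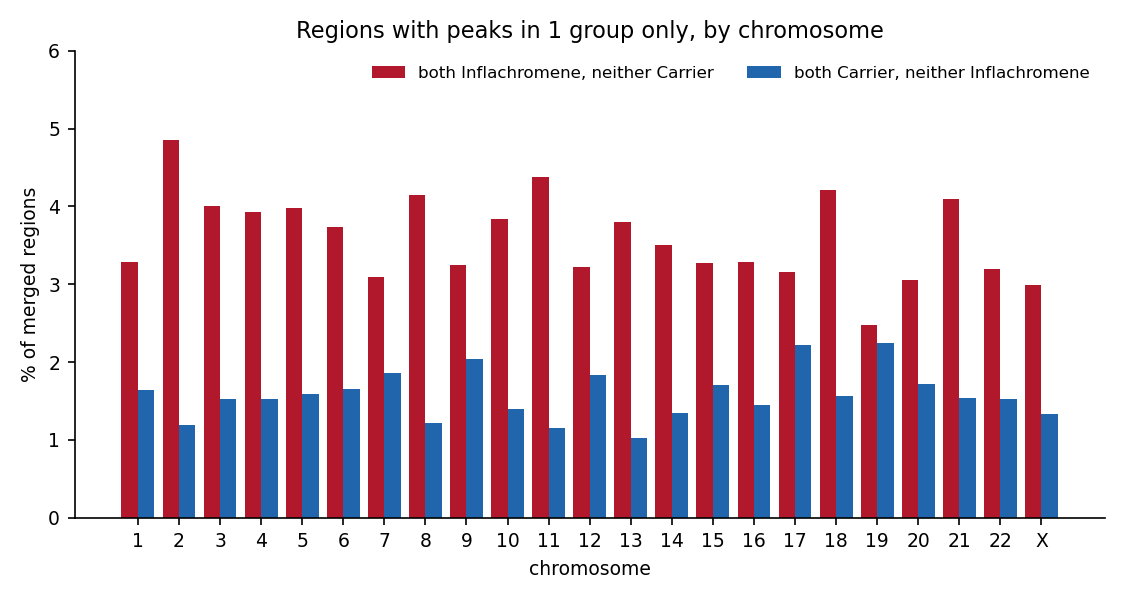
Percent of merged regions (y axis) with a peak in both Inflachromene and neither Carrier library (red) and in both Carrier and neither Inflachromene library (blue), by chromosome (x axis). Red runs from 2.47% on chromosome 19 to 4.85% on chromosome 2, and blue from 1.03% on chromosome 13 to 2.25% on chromosome 19.

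Windows of 1 Mb showed where such regions gathered. On chromosome 11 at 128 to 129 Mb, 11 of 110 merged regions (10.0%) were Inflachromene-only, at or near the ETS factor genes ETS1 and FLI1, the potassium channel gene KCNJ5 and ARHGAP32. On chromosome 1 at 17 to 18 Mb they were 11 of 103 (10.7%), near PADI1 and PADI3, peptidylarginine deiminases, and ARHGEF10L. On chromosome 3, in the window that starts at 190 Mb, they were 11 of 42 (26.2%), 10 of them in P3H2. On chromosome 5 at 178 to 179 Mb they were 10 of 124 (8.06%), most of them in COL23A1, and on chromosome 1 at 41 to 42 Mb 10 of 119 (8.40%), most of them in HIVEP3. These 5 windows held 0, 1, 0, 2 and 1 regions of the mirror set.

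Of 19974 protein-coding genes, 2687 (13.5%) had an Inflachromene-only region inside or within 10 kb, 2115 of them a single one and 21 of them 5 or more. These genes were long, with a median of 75.3 kb against 24.2 kb over all genes. P3H2, which encodes a prolyl 3-hydroxylase that modifies collagen chains, had the most. Of its 26 merged regions 11 (42.3%) were Inflachromene-only and none belonged to the mirror set. MAML2, a coactivator of NOTCH signalling, had 8 of 62 (12.9%), HIVEP3, a zinc finger gene, 7 of 89 (7.87%), and COL23A1, which encodes a transmembrane collagen, 6 of 62 (9.68%). SH3RF3 had 6 of 45 (13.3%), and the same 6 lie in the listed span of RANBP2, which covers SH3RF3 on the annotation. RAD51B, a gene of recombination repair, had 6 of 94 (6.38%), and KLHL29 6 of 29 (20.7%). FAM107B, which follows by summed counts, had 6 of 17 (35.3%). Over all regions in or near genes the share was 3.41%.

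Each of the 11 regions at P3H2 (gene span chr3:189956728-190122278, minus strand) was weak and lay inside the gene, between 5.57 and 141 kb from its start. Their levels ran from 2.29 to 5.58 CPM in Inflachromene 11 and from 2.30 to 6.64 CPM in Inflachromene 35. The highest, chr3:190012258-190013159, had 151 counts in Inflachromene 11 and 265 in Inflachromene 35. Their nearest Carrier peaks were 2638 to 49362 bp away, so none lay within 1 kb of one. Within 1 Mb of P3H2, a stretch that also holds TPRG1 and TP63, 18 of 98 merged regions were Inflachromene-only, 29 were consensus regions, 35 were found in Inflachromene 35 alone and 0 in both Carrier libraries alone.

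The gene lists were read by how many of their genes had an Inflachromene-only region, against 13.5% of all protein-coding genes, and by the share of such regions among those near the list, against 3.41%. Lists differ in gene length, which raises the chance of any region, so the second share is the closer guide. The list of YAP and TEAD targets also holds the factors themselves and regulators of the Hippo pathway, which senses cell contact and stiffness. It had 9 of 16 genes and 15 of 227 regions (6.61%). The 9 were YAP1, WWTR1, TEAD1, TEAD2, CCN2, ANKRD1, AMOTL1, LATS2 and CRIM1, and the list held 1 region of the mirror set. WWTR1, the YAP paralogue TAZ, had 2 regions, the higher at 6.83 CPM in Inflachromene 11 and 6.49 in Inflachromene 35. AMOTL1, a scaffold that holds YAP in the cytoplasm, had 7.16 and 6.06 CPM at a start site, and LATS2, a kinase that inhibits YAP, 4.65 and 5.21 CPM with the nearest Carrier peak 19804 bp away.

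Regulators of the epithelial-mesenchymal transition had 6 of 15 genes and 11 of 164 regions (6.71%). They were the transcription factors TWIST1, ZEB1, ZEB2, TCF4 and PRRX1, which drive the mesenchymal state, and GRHL2, which keeps the epithelial one. Both programmes were thus among them: ZEB1 had 2.88 CPM in Inflachromene 11 and 3.88 in Inflachromene 35 at its higher region, PRRX1 2.51 and 5.33, and GRHL2 3.51 and 4.31. Extracellular matrix and integrins had 13 of 28 genes and 18 of 323 regions (5.57%), among them 5 collagen genes (COL1A1, COL3A1, COL5A1, COL5A2 and COL6A3) and 5 integrin genes (ITGA1, ITGA2, ITGA5, ITGA6 and ITGB1). The COL1A1 region, nearer to PPP1R9B, had 8.64 and 10.4 CPM with a Carrier peak at 67 bp, and the COL6A3 one 5.35 and 5.98 CPM with a Carrier peak at 1585 bp. SPARC, a matrix glycoprotein gene, had 5.21 and 4.36 CPM.

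HMG chromatin proteins, the family that holds the known targets of inflachromene, had 3 of 10 genes and 5 of 89 regions (5.62%), with 3 regions of the mirror set (3.37%). HMGA2, an architectural factor of embryonic and tumour chromatin, had 3, the highest inside the gene at 14.8 CPM in Inflachromene 11 and 12.4 in Inflachromene 35. HMGB3 had 1 over its start with 10.3 and 4.71 CPM and a Carrier peak 381 bp away. HMGB1 had 1, 35520 bp from a start, with 2.99 and 3.88 CPM, and HMGB2 had none. In the MYC and ribosome biogenesis list 4 of 15 genes had one (5 of 89 regions, 5.62%), with the highest near ODC1, the rate-limiting enzyme of polyamine synthesis (13.7 and 12.9 CPM).

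TGF-beta and BMP signalling had 8 of 24 genes and 10 of 236 regions (4.24%). SMAD3, a signal transducer of TGF-beta, had 11.5 CPM in Inflachromene 11 and 13.0 in Inflachromene 35 at its higher region, BHLHE40, a target of several signals, 12.4 and 15.6, and SMAD6, an inhibitor of BMP signalling, 7.27 and 4.51. Protein kinase C genes had 3 of 12 (PRKCA, PRKCE and PRKCH) and 9 of 211 regions (4.27%), with the highest near PRKCE at 11.1 and 10.5 CPM. Axon guidance and neuronal adhesion, a list of long genes (median 374 kb), had 13 of 32 genes and 22 of 525 regions (4.19%). UNC5B, a netrin receptor, had 7.72 and 9.87 CPM, NRP2, a semaphorin and growth factor co-receptor, 5.65 and 9.21, and SEMA3C, a secreted semaphorin, had 4 regions, the highest at 5.17 and 4.31. Pancreatic lineage factors had 4 of 19 (HNF4A, FOXA2, TP63 and RUNX2; 7 of 170 regions, 4.12%), with 11.9 and 7.86 CPM near FOXA2, a pioneer factor of endoderm. Autophagy had 5 of 20 genes and 7 of 184 regions, with ATG7, the activating enzyme of autophagy conjugation, at 11.2 and 10.6 CPM. Hypoxia and glycolysis had 5 of 18 and 3.51%, with ADM, a secreted peptide gene induced by low oxygen, at 18.7 and 12.7 CPM.

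Other lists lay at or under the background. AP-1 and MAPK feedback had 3 of 25 genes and 3.51% of regions, against 4.09% for the mirror set, with JUN at 26.7 CPM in Inflachromene 11 and 16.8 in Inflachromene 35 and a Carrier peak at 578 bp. EGF receptor family genes had 2 of 13 (EGFR and NRG1) and 3.47% of regions. Housekeeping controls had 2 of 15 and 2.63%, p53 targets 1 of 16 (CDKN1A, 7.09 and 6.86 CPM at its higher region) and 2.53%, NRF2 targets 2 of 14 and 2.22%, and G1/S and DNA replication 2 of 24 (CDC6 and POLE) and 1.87%. The interferon list had 1 of 22 (B2M) and 1.02%. No gene of G2/M and mitosis (0 of 90 regions) and none of NF-kB and secreted inflammatory factors (0 of 98 regions) had one, while the mirror set had 2 and 0 regions there.

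Counts in Inflachromene-only regions were spread over many barcodes. Of all barcodes, 3681 of 4067 in Inflachromene 11 (90.5%) and 3166 of 3276 in Inflachromene 35 (96.6%) had at least 1. Every barcode with at least 2000 counts, called deep here, had a count in at least 8 of them: the 1531 deep barcodes of Inflachromene 11 carried a median of 152 (8 to 649) and the 2060 of Inflachromene 35 a median of 178 (10 to 563). The median region was seen in 44 barcodes of Inflachromene 11 and 66 of Inflachromene 35. The barcode with the most counts in a region held 4.55% of the region's counts in Inflachromene 11 and 3.15% in Inflachromene 35 at the median. In 2 regions of Inflachromene 11 and 0 of Inflachromene 35 a single barcode held over 20% of the counts. The share of a deep barcode's counts in Inflachromene-only regions had a median of 1.71% in Inflachromene 11 and 1.80% in Inflachromene 35. Over barcodes whose names occur in 1 library only, the pooled shares were 1.79% in Inflachromene 11 and 1.84% in Inflachromene 35, within 0.01 percentage points of those over all barcodes.

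Barcode clusters differed in how much they carried. Clusters were built on consensus regions alone, which hold no Inflachromene-only region, and are called by number. Cluster 1 was the most frequent in both Inflachromene libraries (57.3% of deep barcodes in Inflachromene 11 and 46.7% in Inflachromene 35), with 81.0% in Carrier 12 and 25.5% in Carrier 31. In Inflachromene 11, Inflachromene-only regions took 2.01% of the counts of cluster 2 (437 barcodes; exact interval 1.998 to 2.015) and 1.59% of those of cluster 1 (877 barcodes; 1.58 to 1.60). In Inflachromene 35 they took 2.21% in cluster 5 (466 barcodes; 2.20 to 2.22), 1.88% in cluster 3 (411 barcodes), 1.61% in cluster 2 (114 barcodes) and 1.58% in cluster 1 (963 barcodes; 1.57 to 1.58). These are the clusters of at least 100 barcodes. Some smaller ones had higher shares, with 2.44% in cluster 6 (53 barcodes) and 3.13% in cluster 9 (20 barcodes) of Inflachromene 11 and 2.31% in cluster 6 of Inflachromene 35 (47 barcodes). Cluster 1 was itself uneven: with 15 components it came apart into pieces of 1.97%, 1.501% and 1.40% in Inflachromene 11 and of 1.82%, 1.42% and 1.55% in Inflachromene 35, against 1.997% in the cluster that matched cluster 2 of Inflachromene 11 and 2.21% in the one that matched cluster 5 of Inflachromene 35. Doublets were not called, and their part in the clusters was not tested. Among deep barcodes, cluster 2 thus carried 41.6% of the Inflachromene-only counts of Inflachromene 11, and cluster 5 33.7% of those of Inflachromene 35. The same clusters held 37.3% and 28.2% of all counts of the deep barcodes. Barcodes of 1 library are not replicates, and no test was made between clusters.

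The regions with 1 Carrier peak had a smaller rise of the same kind. Relative to counts in consensus regions, Inflachromene-only regions were 1.27-fold higher in cluster 2 than in cluster 1 of Inflachromene 11, against 1.15-fold for regions with 1 Carrier peak. In Inflachromene 35 cluster 5 was 1.45-fold above cluster 1, against 1.23-fold, and cluster 3 was 1.21-fold above it, against 1.13-fold. Cluster 2 of Inflachromene 35 had hardly any rise, with a ratio of 1.01, against 0.986. Among clusters of at least 100 barcodes, cluster 2 of Inflachromene 11 and cluster 5 of Inflachromene 35 had the highest shares of their libraries. These clusters also differed from cluster 1 in the share of counts that fell on whole chromosomes, whose part in the ratios is measured by the standardised values that follow. The first 40 Mb of chromosome 9 were lower than in cluster 1 by a log2 difference of -0.50 in cluster 2 of Inflachromene 11 and -0.35 in cluster 5 of Inflachromene 35, and the first 90 Mb of chromosome 3 were higher by 0.34 and 0.42. Chromosome 11 was higher by 0.41 in cluster 2 of Inflachromene 11 and by 0.03 in cluster 5 of Inflachromene 35. In cluster 5 of Inflachromene 35, chromosome 15 differed by -0.49 and chromosome 7 by -0.40, where cluster 2 of Inflachromene 11 differed by less than 0.1. Standardised over windows of 10 Mb, so that each window has the same weight in both clusters, the ratios were 1.24 for cluster 2 of Inflachromene 11, 1.42 for cluster 5 and 1.19 for cluster 3 of Inflachromene 35. For cluster 2 of Inflachromene 35 the standardised ratio was 1.002. Cluster 5 was nearly absent elsewhere, with 3 deep barcodes in Inflachromene 11.

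**Figure D4:**
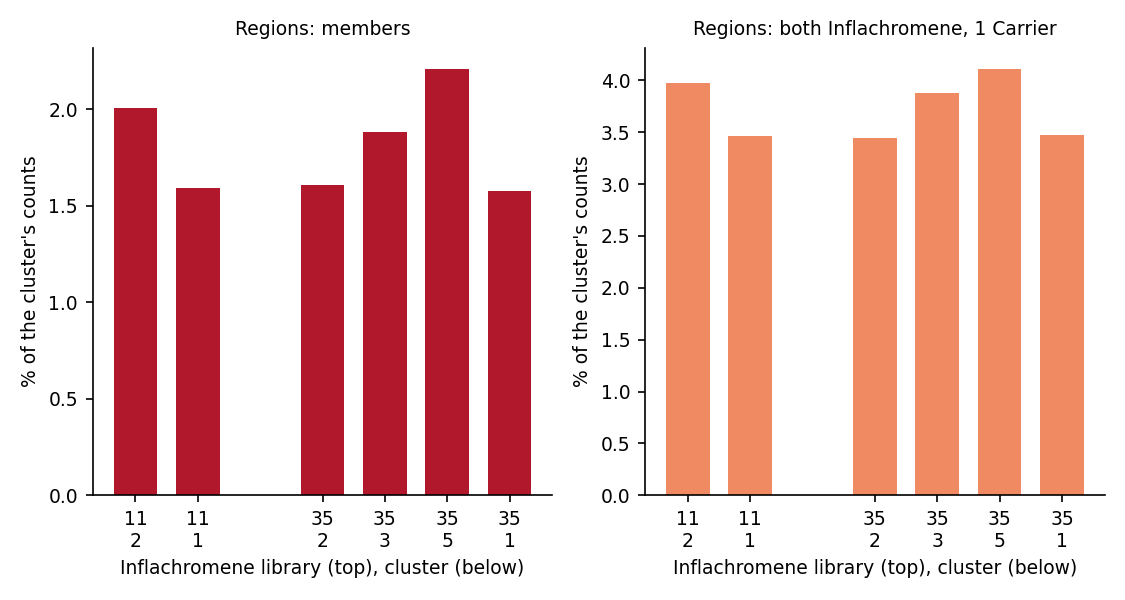
Percent of a barcode cluster's counts (y axis) in Inflachromene-only regions (left, red) and in regions with 1 Carrier peak (right, orange), for clusters of at least 100 barcodes in the 2 Inflachromene libraries (x axis, library above cluster number). Cluster 2 of Inflachromene 11 (2.01%) and cluster 5 of Inflachromene 35 (2.21%) stand above cluster 1 of the same library (1.59% and 1.58%), and the right panel has the same order in Inflachromene 11.

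Region by region the spread was wide. In Inflachromene 11, 710 of the 4666 (15.2%) were at least 2-fold higher in cluster 2 than in cluster 1 (CPM plus 0.5), against 5.71% of all regions called in both Inflachromene libraries, and 121 were at least 2-fold lower. In Inflachromene 35, 1032 (22.1%) were at least 2-fold higher in cluster 5 than in cluster 1, against 9.19%, and 386 were 2-fold lower. In cluster 3 of that library 603 (12.9%) were 2-fold higher, against 6.02%, and 474 were 2-fold lower. In cluster 2 of Inflachromene 35 (114 barcodes) 461 (9.88%) were 2-fold higher, against 4.43%, and 832 were 2-fold lower. There 335 of the regions had no count. The median log2 ratio to cluster 1 was -0.104, and -0.105 for regions with 1 Carrier peak. Of regions with 1 Carrier peak, which were also weak, 10.2% were 2-fold higher in cluster 2 of Inflachromene 11. In cluster 5 of Inflachromene 35 the share was 15.3%. In both libraries at once 355 regions (7.61%) passed 2-fold, in cluster 2 of Inflachromene 11 and cluster 5 of Inflachromene 35. In both, 20 passed it downward. The shares over all regions were not computed for passing in both libraries or for any count of lower regions. None of those counts is therefore read as particular to Inflachromene-only regions.

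The regions of P3H2 were far above this. Summed over the 11, cluster 2 of Inflachromene 11 had 72.4 CPM (698 counts, exact Poisson interval 67.1 to 77.9), against 14.7 CPM in cluster 1 (197 counts, 12.7 to 16.9), a ratio of 4.94. In Inflachromene 35 cluster 5 had 115 CPM (1271 counts, 109 to 122), against 16.5 CPM in cluster 1 (250 counts, 14.5 to 18.6), a ratio of 7.01. Cluster 3 of that library had 14.1 CPM and cluster 2 had 21.2 CPM, both far below cluster 5. Each of the 11 was higher in cluster 2 than in cluster 1 of Inflachromene 11 and in cluster 5 than in cluster 1 of Inflachromene 35. At chr3:190063877-190064788 the values were 11.1 CPM in cluster 2 against 1.34 in cluster 1 of Inflachromene 11, and 16.5 CPM in cluster 5 against 2.31 in cluster 1 of Inflachromene 35. The part of chromosome 3 beyond 90 Mb, where P3H2 lies, differed from cluster 1 by a log2 of 0.07 in cluster 2 of Inflachromene 11 and -0.28 in cluster 5 of Inflachromene 35.

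**Figure D5:**
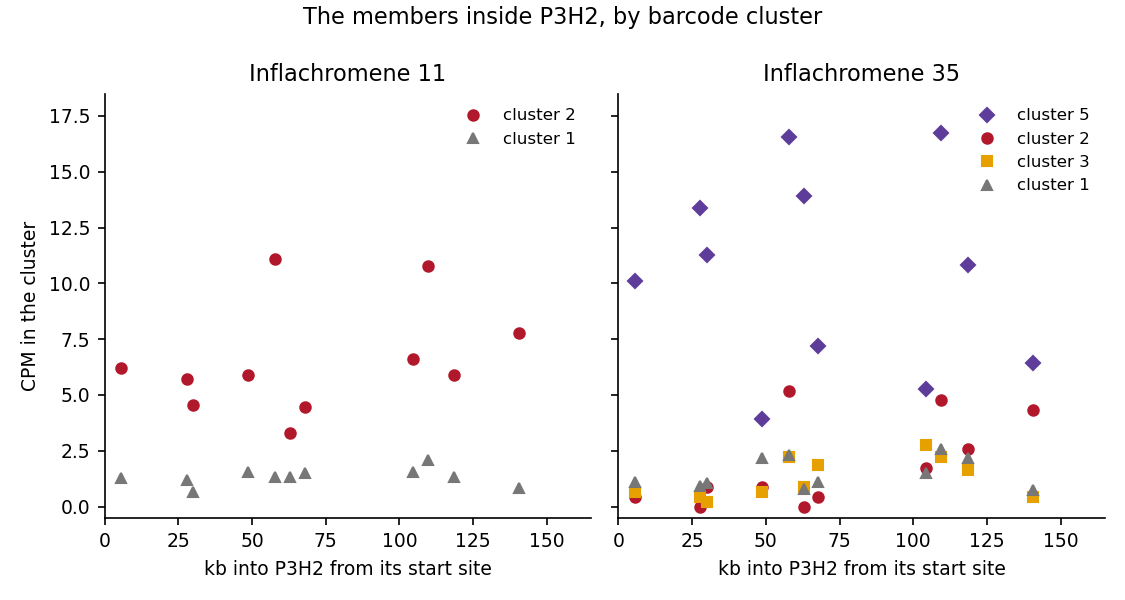
CPM within a barcode cluster (y axis) of each of the 11 Inflachromene-only regions in P3H2 by distance from its start site in kb (x axis), for Inflachromene 11 (left) and Inflachromene 35 (right). Points of cluster 2 (red, left) and cluster 5 (purple diamonds, right) lie above the grey triangles of cluster 1 at all 11 regions, up to 11.1 and 16.7 CPM.

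Consensus regions at P3H2 were measured in all 4 libraries. One 45.2 kb from the start (chr3:190076645-190077610) had 8.27 CPM in Inflachromene 11 and 11.9 in Inflachromene 35, against 3.21 in Carrier 12 and 5.22 in Carrier 31. In clusters it had 13.8 CPM in cluster 2 of Inflachromene 11 and 31.5 in cluster 5 of Inflachromene 35, against 2.46 and 3.62 in cluster 1 of the same libraries. Cluster 2 of Inflachromene 35 had 5.20 CPM (12 counts). In Carrier 12 it had 7.04 CPM (22 counts) in cluster 2, against 1.80 in cluster 1, and 14.3 CPM (7 counts) in cluster 6. In Carrier 31 cluster 2 was not above cluster 1, with 4.29 CPM (8 counts) against 5.46. Cluster 4, which held 49.8% of the deep barcodes of Carrier 31, had 3.80 CPM. Cluster 7 of Carrier 31 had 53.4 CPM (20 counts), against 5.46 in cluster 1, and cluster 7 of Inflachromene 11 had 30.8 CPM (4 counts). Cluster 7 was shallow, with a median of 2878 counts per barcode in Carrier 31 and 2261 in Inflachromene 11. In Carrier 31 its share of consensus counts differed from cluster 1 by a log2 of -0.65 on chromosome 19 and 0.53 on chromosome 4. The region over a P3H2 start (chr3:190120385-190121415) had 24.7 and 15.9 CPM in Inflachromene 11 and 35, against 13.0 and 10.3 in Carrier 12 and 31. Both regions were higher in each Inflachromene library than in each Carrier library. Over all consensus regions 8.1% were higher in this way and 25.1% were lower. Of the other 2 consensus regions of the gene, chr3:189961282-189962225 had 14.0 and 10.6 CPM in Inflachromene 11 and 35, against 12.2 and 11.1 in Carrier 12 and 31, so the groups overlapped. The other, chr3:189967009-189967967, had 4.73 and 4.13 CPM, against 4.11 and 3.62, a log2 fold change of 0.27. It too was without overlap, by a narrow margin. The edgeR adjusted p was 0.999627 for each of the first pair (log2 fold changes of 1.35, standard error 0.31, and 0.87, standard error 0.23). Cluster 2 held 28.5% of deep barcodes in Inflachromene 11 and 5.53% in Inflachromene 35, against 8.84% in Carrier 12 and 5.43% in Carrier 31.

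Other regions higher in cluster 2 of Inflachromene 11 and in cluster 5 of Inflachromene 35 than in cluster 1 were picked after their values were seen, by the smaller of their 2 log2 ratios. A pair 16465 and 32839 bp from PLCB4, a phospholipase C gene, had 7.77 and 6.53 CPM in cluster 2 of Inflachromene 11, against 0.967 and 0.744 in cluster 1, and 19.7 and 12.9 CPM in cluster 5 of Inflachromene 35, against 2.37 and 0.461 in cluster 1. The first of this pair was higher still in cluster 2 of Inflachromene 35 (22.97 CPM) and had 6.98 CPM in cluster 3, so its order over clusters was not that of P3H2. One 86719 bp from EHF, an epithelial ETS factor gene, had 8.09 CPM in cluster 2 against 1.12 in cluster 1, and 11.1 in cluster 5 against 1.05 in cluster 1. One 198524 bp from AHR, the aryl hydrocarbon receptor gene, had 7.05 against 1.26 and 17.4 against 1.32 CPM in the same order. Among the genes named from the lists, summed regions had ratios to cluster 1 of 3.32 (cluster 2 of Inflachromene 11) and 5.47 (cluster 5 of Inflachromene 35) at GRHL2, 3.804 and 2.82 at TP63, 3.01 and 4.25 at COL6A3, 2.82 and 3.51 at ATG7 and 2.80 and 2.92 at BHLHE40. ATG7 and BHLHE40 lie in the first 90 Mb of chromosome 3, where all consensus counts were higher in these clusters, and EHF lies on chromosome 11, where they were higher in cluster 2 of Inflachromene 11. The ratios were 0.964 and 0.7005 at HMGA2, 0.968 and 0.6396 at EGFR, 1.10 and 0.617 at SMAD3 and 1.06 and 0.635 at JUN. EGFR and AHR lie on chromosome 7 and SMAD3 on chromosome 15, where consensus counts were lower in cluster 5 of Inflachromene 35. FAM107B had 3.06 in cluster 2 of Inflachromene 11 and 0.547 in cluster 5 of Inflachromene 35, so at this gene the clusters went opposite ways. Its 6 regions summed to 59.9 CPM (541 counts) in cluster 3 of Inflachromene 35, against 8.63 CPM in cluster 1.

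Consensus regions near Inflachromene-only ones were set beside the rest, as a description since the 4 libraries are those the rule used. Within 10 kb of an Inflachromene-only region lay 3635 of the 50771 consensus regions, and 2398 of the 4666 (51.4%) had a consensus region that close. With the quasi-likelihood test of edgeR, 0 of all consensus regions (0%) passed a threshold of 0.05, and the smallest adjusted p was 0.999627. The count of calls changed when a library was left out: the test called 3180 regions without Inflachromene 11 (2780 higher and 400 lower), 299 without Inflachromene 35 (159 higher and 140 lower), 0 without Carrier 12 and 5, all higher, without Carrier 31. At an unadjusted p under 0.05, 202 of the 3635 were higher (5.56%) and 34 lower (0.935%), against 3.04% higher and 1.44% lower over all consensus regions. DESeq2 called 28 of the 42896 regions it gave an adjusted p (0.0653%), all higher, and 6 of these lay within 10 kb. Non-overlap of the groups was read from CPM over all peak counts, without the normalisation factors of the fit. Of the 3635, 444 were higher in both Inflachromene libraries than in both Carrier libraries (12.2%, against 8.1% of all). Another 751 were lower (20.7%, against 25.1%). Consensus regions took 83.1% of the counts of Inflachromene 35, against 89.5% in Inflachromene 11, 87.9% in Carrier 12 and 89.8% in Carrier 31. The part of this difference in the non-overlap counts was not tested. The median log2 fold change was 0.05 within 10 kb and 0.01 over all consensus regions, and -0.00342 within 10 kb without Inflachromene 35. Relative to all consensus regions, the median deviation of the neighbours was -0.01 in Inflachromene 11 and 0.06 in Inflachromene 35, against -0.02 in Carrier 12 and -0.03 in Carrier 31, and Inflachromene 35 was the only library above 0.

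The 6 neighbouring consensus regions with the smallest p were higher in both Inflachromene libraries. At TPRG1 (chr3:189324459-189325441, 5370 bp from an Inflachromene-only region) the levels were 10.3 CPM in Inflachromene 11 and 17.2 in Inflachromene 35, against 3.63 in Carrier 12 and 3.96 in Carrier 31, and the fitted log2 ratio was 1.95 (standard error 0.29, edgeR adjusted p = 0.999627, DESeq2 adjusted p = 8.78e-05). A second TPRG1 neighbour, chr3:189334246-189335179, had 5.21 and 8.04 CPM in Inflachromene 11 and 35, against 2.25 and 2.42 in Carrier 12 and 31. One in EFHB (chr3:19888886-19889830) had 36.2 and 43.2 CPM, against 20.8 and 22.02, with DESeq2 at an adjusted p of 0.00305. One in DGKD, a diacylglycerol kinase gene (chr2:233429139-233430581), had 8.79 and 11.02 CPM, against 4.41 and 2.29. One 137865 bp from RPLP1 had 20.6 and 27.4 CPM, against 10.9 and 13.2, and one 117301 bp from RMDN2 had 4.28 and 6.01 CPM, against 1.35 and 2.25. In all 6 Inflachromene 35 was the highest library. The TPRG1 region of smallest p had 17.4 CPM in cluster 2 of Inflachromene 11 and 23.8 in cluster 5 of Inflachromene 35, against 2.53 and 9.48 in cluster 1 of the same libraries, and 24.5 CPM in cluster 3 of Inflachromene 35. Cluster 2 of Inflachromene 35 had 5.20 CPM, below cluster 1 of that library. Some small Carrier clusters were higher, with 35.2 CPM (38 counts) in cluster 3 of Carrier 12 and 48.1 CPM (18 counts) in cluster 7 of Carrier 31. Others were low, with 6.14 CPM in cluster 6, 3.52 in cluster 2 and 0 in cluster 8 of Carrier 12. In Carrier 31, cluster 2 had 3.22 CPM and cluster 4 had 3.20. Cluster 7 of Inflachromene 11, shallow like that of Carrier 31, had 77.0 CPM (10 counts).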

How the data were processed

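The 4 libraries, 2 Inflachromene and 2 Carrier, were grouped by their titles. Per the labels' protocols, nuclei were processed with 10x single-cell ATAC reagents. Cell Ranger ARC, Cell Ranger ATAC 2.1.0 and the build GRCh38 come from the submitters' processing notes, which give no role for each. For each library the authors deposited peaks and raw counts per peak and barcode. A library's value in a merged region was the sum over its own peaks. Between 82.4% and 84.9% of entries above 0 were even.

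Genes came from RefSeq tables. Barcodes of at least 2000 counts were clustered on consensus regions (30 latent semantic components, the first left out; 15 neighbours; Leiden resolution 0.5). No doublets were called or removed; whether any were removed before deposit is not given in the sources used here. Consensus counts, summed over barcodes, were tested with edgeR 4.0.16 (TMM, quasi-likelihood, Benjamini-Hochberg). The code was checked on counts simulated with a fixed dispersion, which does not measure power at the spread of these libraries. DESeq2 1.42.0 was an alternative, as were other merge gaps, peak minimums, gene-end distances, cluster settings and leaving out each library. The labels of libraries within a group name no difference beyond the mouse. Each mouse gave 1 library, so p-values measure the spread between libraries. In that spread mouse, depth and covered length cannot be told apart. Members and lists were chosen with earlier results of these data known. Genes and regions were named by level, count of regions, list and nearness, except those said to be chosen after their values were seen.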

Additional observations from a re-analysis of the deposited data

How the results depend on the processing

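The number of Inflachromene-only regions was 4245 with peaks merged across gaps of up to 500 bp, 4295 with peaks of at least 50 counts and 3834 with no Carrier peak within 1000 bp. Leaving out 1 library, and so applying the rule to 3, gave between 8297 (without Carrier 31) and 24318 (without Inflachromene 11), with 8667 without Carrier 12 and 14269 without Inflachromene 35: the rule then asks less. P3H2 kept a count of 11 in all of these except those without an Inflachromene library (20 without Inflachromene 11, 13 without Inflachromene 35). The share near a gene end was 14.2% with all genes of the annotation and 17.7% within 5000 bp, where consensus regions had 34.5% and 38.2%. With the clusters that fell mostly in cluster 1 pooled, cluster ratios moved by less than the difference between libraries under other depth, resolution, components, entries counted once, or without shared barcode names. Taken singly these pieces differed: with 15 components in Inflachromene 11 the share was 1.997% in the cluster that matched cluster 2, against 1.97%, 1.501% and 1.40% in pieces of cluster 1. In the consensus test, DESeq2 called 28 regions. Leaving out a library gave between 0 (without Carrier 12) and 3180 calls (without Inflachromene 11), with 299 without Inflachromene 35 and 5 without Carrier 31, and the lone library was assumed to vary like the other group. RLE factors, no filter, deep barcodes, entries counted once and unshared names gave 0. The neighbours' median log2 fold change lay between -0.00342 (without Inflachromene 35) and 0.0647 (without Carrier 12) with a library left out. No paired analysis was possible because the mouse numbers are not shared between groups. Alternatives without shared barcode names, and the sets far from Carrier peaks, were chosen after seeing the data. Peaks could not be called again, so counts of Inflachromene-only regions in Carrier libraries were not analysed here, and weak regions are limited by depth.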

Other observations

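In windows of 10 Mb with at least 100 merged regions, Inflachromene-only regions were densest on chromosome 18 at 60 to 70 Mb (13 of 120, 10.8%), chromosome 7 at 10 to 20 Mb (30 of 297, 10.1%), chromosome 21 at 10 to 20 Mb (9 of 100, 9.0%) and chromosome 11 at 90 to 100 Mb (19 of 218, 8.72%), against 3.64% overall. The same windows held 0, 4, 0 and 3 regions of the mirror set. Of the windows that followed, 4 were on chromosome 2, at 30 to 40 Mb (7.18%), 50 to 60 Mb (6.45%), 60 to 70 Mb (7.02%) and 120 to 130 Mb (6.71%). Further windows of 1 Mb with many such regions were chromosome 11 at 126 to 127 Mb (10 of 58, 17.2%), near ST3GAL4, a sialyltransferase gene, and chromosome 2 at 46 to 47 Mb (9 of 92, 9.78%), near PRKCE.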
